A study of Homo sapiens with 8 samples.

Results

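The 10 genes described here encode amino acid transporters of the plasma membrane: SLC7A5, SLC3A2, SLC43A1, SLC7A1, SLC7A6, SLC1A5, SLC1A4, SLC38A1, SLC38A2 and SLC6A9. They were taken by gene symbol from the 25192 symbols listed in each library, and all 10 were present and passed the filter on low counts in every comparison. RNA was sequenced from HT29 and SW480, 2 established human colorectal cancer lines, at 36 h after transfection with a control siRNA or an siRNA against PRDX2, the cytosolic peroxidase peroxiredoxin II. Each line and siRNA had 2 libraries, 8 in all. HT29 cells grew in McCoy's 5A medium and SW480 cells in RPMI1840, both with serum, so cell line and medium cannot be told apart. No label says whether duplicates came from separate transfections, so p-values measure the spread between these libraries, which may be technical. The labels do not say which PRDX2 siRNA sequence was used, so effects of that sequence and of PRDX2 loss cannot be told apart.

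Amino acids cross the plasma membrane through carriers that differ in the amino acids they accept and in what drives them. Exchangers such as the SLC7A5 and SLC3A2 heterodimer trade one amino acid for another, while sodium-coupled carriers such as SLC38A1 and SLC38A2 load cells with neutral amino acids against the gradient. Proliferating epithelial cells take up glutamine, leucine and arginine through these carriers, which feed protein synthesis and amino acid sensing by the kinase complex mTORC1. When amino acids run short or protein folding is disturbed, phosphorylation of eIF2alpha raises translation of the transcription factor ATF4, and several transporter genes are known targets of that factor.

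In GRCh37 coordinates, the spans were chr16:87863629-87903113 for SLC7A5, chr11:62623476-62656352 for SLC3A2 and chr11:57252007-57283253 for SLC43A1. SLC7A1 spans chr13:30083551-30169825 and SLC7A6 spans chr16:68298419-68335726. SLC1A5 spans chr19:47278140-47291851, SLC1A4 spans chr2:65215611-65250999 and SLC6A9 spans chr1:44457172-44497139. SLC38A1 and SLC38A2 lie close together on chromosome 12, at chr12:46576846-46663800 and chr12:46751971-46766556.

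Promoter stretches of 6 of the genes are shown, 5 with log2 changes above 0 in both lines and SLC38A2, above 0 in HT29 and below 0 in SW480. SLC43A1 and SLC6A9, also above 0 in both lines, are not shown and hold no TGATGNAA match. SLC1A5 and SLC7A6, not shown, also had opposite signs in the lines, and SLC1A5 does hold a TGATGNAA match. Whether this element goes with the changes was not tested. Each is 200 bases of RefSeq sequence (GRCh38.p14), written 5′ to 3′ on the strand of the gene, from 170 bases before the annotated start to 30 bases after it. Capitals mark matches to TGATGNAA (the C/EBP-ATF response element), CACGTG (the E-box) or TGACNNNGC (the antioxidant response element), searched on both strands. SLC3A2, SLC1A4 and SLC38A1 have more than 1 annotated promoter, and the one shown holds a TGATGNAA match.
SLC7A5 (chr16:87869478-87869677, minus strand): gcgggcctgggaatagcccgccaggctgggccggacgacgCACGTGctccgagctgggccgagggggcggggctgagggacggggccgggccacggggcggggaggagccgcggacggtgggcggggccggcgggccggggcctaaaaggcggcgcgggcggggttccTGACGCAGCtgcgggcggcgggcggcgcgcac
SLC3A2 (chr11:62881529-62881728, plus strand): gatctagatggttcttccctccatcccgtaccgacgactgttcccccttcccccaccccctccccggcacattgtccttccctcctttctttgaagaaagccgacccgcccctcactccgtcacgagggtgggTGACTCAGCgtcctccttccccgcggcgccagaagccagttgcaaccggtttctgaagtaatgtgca
SLC7A1 (chr13:29595659-29595858, minus strand): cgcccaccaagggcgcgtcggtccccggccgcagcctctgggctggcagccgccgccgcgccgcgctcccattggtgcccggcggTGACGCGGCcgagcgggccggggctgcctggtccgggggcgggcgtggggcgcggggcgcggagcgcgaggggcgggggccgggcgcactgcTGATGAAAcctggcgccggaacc
SLC1A4 (chr2:64989229-64989428, plus strand): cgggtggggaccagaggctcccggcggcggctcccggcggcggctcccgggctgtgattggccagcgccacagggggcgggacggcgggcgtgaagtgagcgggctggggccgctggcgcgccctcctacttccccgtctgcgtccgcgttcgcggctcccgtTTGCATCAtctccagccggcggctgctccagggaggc
SLC38A1 (chr12:46266487-46266686, minus strand): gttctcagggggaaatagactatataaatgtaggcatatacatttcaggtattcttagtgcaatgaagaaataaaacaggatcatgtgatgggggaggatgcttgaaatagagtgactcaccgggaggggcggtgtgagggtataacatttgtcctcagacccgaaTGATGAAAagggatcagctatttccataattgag
SLC38A2 (chr12:46372744-46372943, minus strand): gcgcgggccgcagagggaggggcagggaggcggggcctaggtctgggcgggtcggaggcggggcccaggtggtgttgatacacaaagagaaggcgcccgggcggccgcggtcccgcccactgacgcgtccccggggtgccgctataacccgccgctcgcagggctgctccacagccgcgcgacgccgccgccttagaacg

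In 250 bases before and 50 after each start, TGATGNAA matched 5 of the 17 RefSeq promoters of the 10 genes, against 3.62% of 35116 promoters of all genes. The matches lay in 1 promoter each of SLC3A2, SLC7A1, SLC1A5, SLC1A4 and SLC38A1. That of SLC3A2 begins at base 38 after the start and so lies past the stretch shown. CACGTG matched 3 of the 17, in SLC7A5, SLC43A1 and SLC1A5, against 7.26% of all promoters. TGACNNNGC matched 5 of the 17 against 13.3%, and in SLC7A5 its match spans the start. The SLC38A2 promoter held none of these letters in this window. The motifs were chosen after the sequences had been read, a match describes letters only, and binding of any factor was not measured.

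The libraries held 8857442 to 10164137 estimated counts, so 3 counts correspond to 0.295 to 0.339 CPM (counts scaled to library size). PRDX2 checked the labels. Its normalised CPM in HT29 were 148 and 154 with control siRNA and 82.4 and 83.2 with PRDX2 siRNA, a log2 change of -0.87 (SE 0.05, edgeR adjusted p = 1.15e-09). In SW480 they were 209 and 246 against 69.5 and 70.7, a log2 change of -1.70 (SE 0.12, adjusted p = 0.000618). The knockdown was deeper in SW480, with a difference of 0.84 between the changes (SE 0.12, adjusted p = 0.0128). Over 16 alternatives this difference ran from 0.70 to 1.01. Its call was lost without any 1 of the libraries other than the SW480 controls. All 7 epithelial markers were detected in every library, with summed levels of 15499 to 17042 TPM (transcript abundance per length) in HT29 and 9874 to 10926 in SW480. The 10 markers of other cell types summed to 1.62 to 2.50 TPM in HT29 and 13.8 to 21.9 TPM in SW480, mostly COL1A1 and DES, and PTPRC and DCN were at 0 in all 8 libraries.

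The control duplicates of SW480 stood apart from the other pairs. Their counts differed by a chi-square of 11.4 per degree of freedom over genes, against 1.33 to 1.44 in the other 3 groups. The gene-wise difference between these duplicates followed transcript GC content, with a Spearman rho of 0.74 across genes against 0.14 to 0.21 elsewhere. Among the transporters, replicate 2 over replicate 1 was 1.32 for SLC7A5, 1.26 for SLC3A2, 1.23 for SLC6A9 and 1.21 for SLC1A5, whose transcripts hold 57.3 to 60.7% GC. It was 1.06 for SLC43A1, which holds 60.2%. The same ratio was 0.867 for SLC38A1 and 0.853 for SLC38A2, the genes with the least GC (42.6% and 38.3%). Changes of the transporters in SW480 are therefore given below with all 4 libraries and without each control library.

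Per transcript length, SLC1A5 was the most abundant of the 10 in every library. In HT29 controls it stood at 721.5 and 769.6 TPM. This gene encodes the glutamine and neutral amino acid exchanger ASCT2. Next came SLC3A2 at 286.6 and 308.2 TPM and SLC7A1 at 229.3 and 230.6 TPM. SLC7A5, at 186.7 and 195.8 TPM, overlapped SLC38A2 at 188.7 and 190.6 TPM, so their order was not resolved. Lower levels followed in the order SLC38A1 (128.0 and 130.3 TPM), SLC43A1 (56.6 and 56.8), SLC7A6 (mean 49.2 ± 1.10, SD, n = 2) and SLC1A4 (10.9 and 11.2). SLC6A9, the glycine carrier, was lowest at 1.99 and 2.03 TPM. In SW480 controls the order differed: SLC1A5 led at 1502 and 1731 TPM, and SLC7A5 (399.2 and 523.7 TPM) overlapped SLC3A2 (396.7 and 493.5 TPM). SLC38A1, SLC38A2, SLC7A1, SLC7A6, SLC43A1, SLC1A4 and SLC6A9 came after, each pair of neighbours separate in both libraries. SLC6A9 was again lowest, at 2.20 and 2.62 TPM. The RSEM length behind these levels varied between libraries by at most 4.82%, in SLC1A5.

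**Figure D1:**
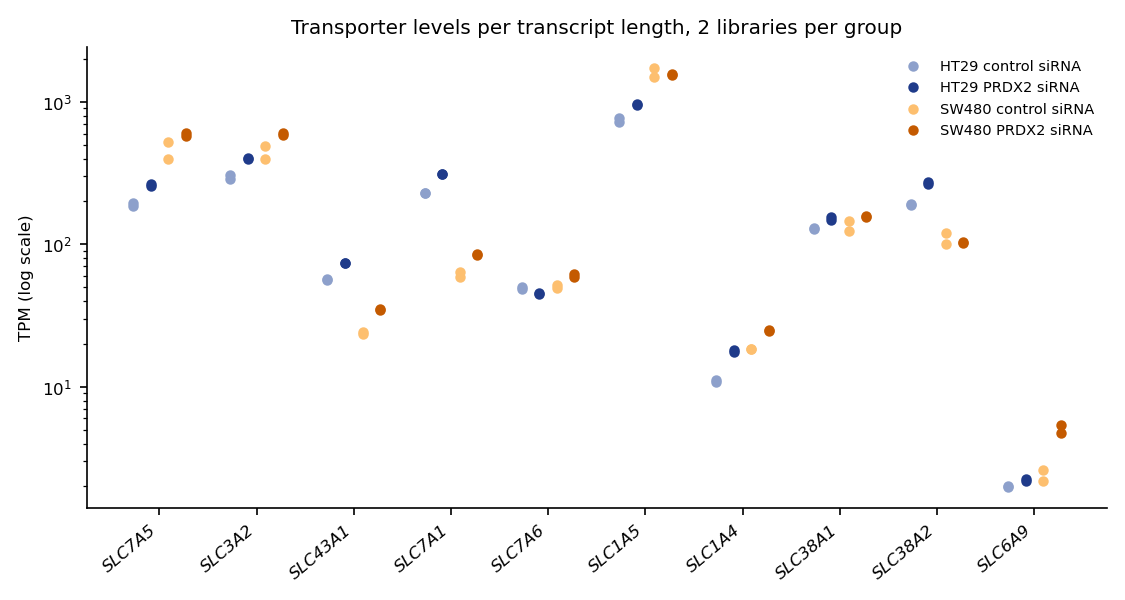
Level of each transporter in TPM on a log axis, with 1 point per library and colours for the 4 groups. SLC1A5 has the highest points in every group and SLC6A9 the lowest, below 6 TPM throughout.

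SLC7A5 carries large neutral amino acids only as a heterodimer with the heavy chain SLC3A2, known on cell surfaces as CD98. The ratio of SLC7A5 to SLC3A2 TPM was 0.635 to 0.654 in the 4 HT29 libraries and 0.990 to 1.06 in the 4 SW480 libraries. These ranges did not overlap between lines, while within each line the PRDX2 siRNA and control libraries overlapped.

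Comparing the lines at baseline, 4 of the 10 genes were higher in SW480 and 3 were higher in HT29 by the quasi-likelihood test of edgeR, adjusted after Benjamini and Hochberg over 14346 genes. In the same comparison 35.7% of all tested genes were called higher and 31.8% lower in SW480, so this count is close to the background. The log2 differences, SW480 over HT29, were 1.14 for SLC7A5 (SE 0.13, adjusted p = 8.25e-05), 0.99 for SLC1A5, 0.62 for SLC1A4 and 0.47 for SLC3A2. Their counterparts were -2.02 for SLC7A1, the arginine and lysine carrier CAT1, -1.35 for SLC43A1 and -0.91 for SLC38A2. With the 4 control libraries scaled together, so that CPM differ slightly from those given within each line below, SLC7A1 stood at 805 and 799 CPM in HT29 against 188 and 207 in SW480, and SLC7A5 at 401 and 420 against 782 and 1035. SLC7A6, SLC38A1 and SLC6A9 did not pass the test. Over 13 alternatives the difference ran from 0.08 to 0.71 for SLC3A2, 0.19 to 0.71 for SLC1A4 and 0.82 to 1.41 for SLC7A5. Without either HT29 control library SLC3A2 and SLC1A4 lost their calls.

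The comparison of PRDX2 siRNA with control siRNA asked which of these carriers moved when the peroxidase was depleted. In HT29, 8 of the 10 genes rose, SLC7A6 fell and SLC6A9 did not pass the test. Over all 12961 genes tested, 7.76% were called higher and 9.82% lower. The rises were modest, between 1.12-fold for SLC38A1 and 1.54-fold for SLC1A4, and the median log2 change over the 10 was 0.34 against -0.00048 over all genes. Both PRDX2 siRNA libraries lay above both controls for 9 of the 10 and below them for SLC7A6. Such complete separation occurred upwards in 28.3% and downwards in 28.7% of all genes. Because the filter and these libraries are shared, the 10 values are not independent of each other.

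**Figure D2:**
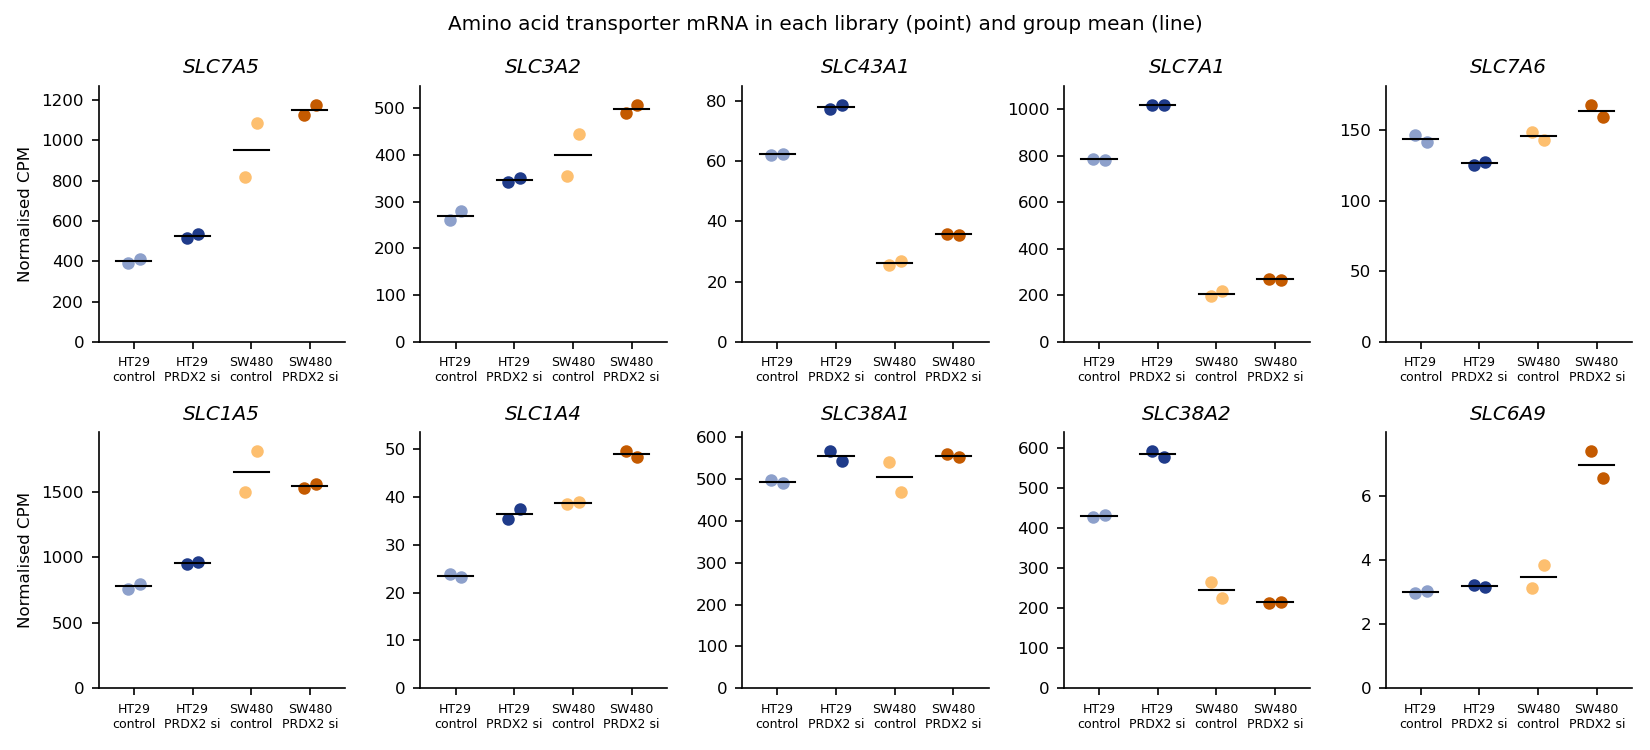
Normalised CPM of each transporter, with 1 point per library and a line at the mean of the 2 libraries of a group. In HT29 the PRDX2 siRNA points lie above the controls for 9 genes and below them for SLC7A6, and the SW480 control pair is wide for SLC7A5, SLC3A2 and SLC1A5.

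Among carriers of large neutral amino acids, SLC7A5 was 393 and 412 CPM in HT29 controls and 516 and 536 CPM with PRDX2 siRNA. The groups did not overlap, and the log2 change was 0.39 (SE 0.03, adjusted p = 8.74e-08). SLC3A2 was 261 and 280 CPM against 341 and 352 CPM. It also separated completely, with a log2 change of 0.36 (SE 0.04, adjusted p = 1.97e-06). SLC43A1, which encodes the uniporter LAT3, was 62.1 and 62.4 CPM against 77.4 and 78.7 CPM, and its log2 change was 0.33 (SE 0.05, adjusted p = 0.000431).

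For the cationic carriers the directions differed. SLC7A1 was 788 and 784 CPM in controls and 1019 and 1018 CPM with PRDX2 siRNA, the closest duplicates of the set. Its log2 change of 0.37 had the smallest SE, 0.02, and the smallest adjusted p of the 10, 5.33e-10. SLC7A6, whose product y+LAT2 pairs with SLC3A2 and exchanges cationic for neutral amino acids, was 146 and 142 CPM against 126 and 127 CPM. It fell by 0.19 on the log2 scale (SE 0.05, adjusted p = 0.00824). DESeq2 did not call this fall (adjusted p = 0.0867).

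In the ASC system, which exchanges alanine, serine, cysteine and glutamine, SLC1A5 was 758 and 798 CPM in controls against 948 and 965 CPM. Its log2 change was 0.30 (SE 0.02, adjusted p = 1.23e-07). SLC1A4, the carrier ASCT1, had the largest change of the 10, from 23.8 and 23.2 CPM to 35.3 and 37.3 CPM. This was a log2 change of 0.63 (SE 0.08, adjusted p = 3.61e-05) on 222 to 362 estimated counts per library.

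Of the sodium-coupled neutral carriers, SLC38A2 rose from 427 and 432 CPM to 590 and 576 CPM in HT29. The log2 change was 0.44 (SE 0.03, adjusted p = 2.51e-09). SLC38A1 moved less, from 498 and 490 CPM to 566 and 543 CPM, a log2 change of 0.17 (SE 0.03, adjusted p = 0.000368). SLC6A9 was 2.98 and 3.03 CPM against 3.22 and 3.15 CPM, on 29 to 33 counts per library. Its log2 change of 0.09 had an SE of 0.25 (adjusted p = 0.866), so a change of the size seen for SLC7A5 was not detectable at this depth.

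**Figure D3:**
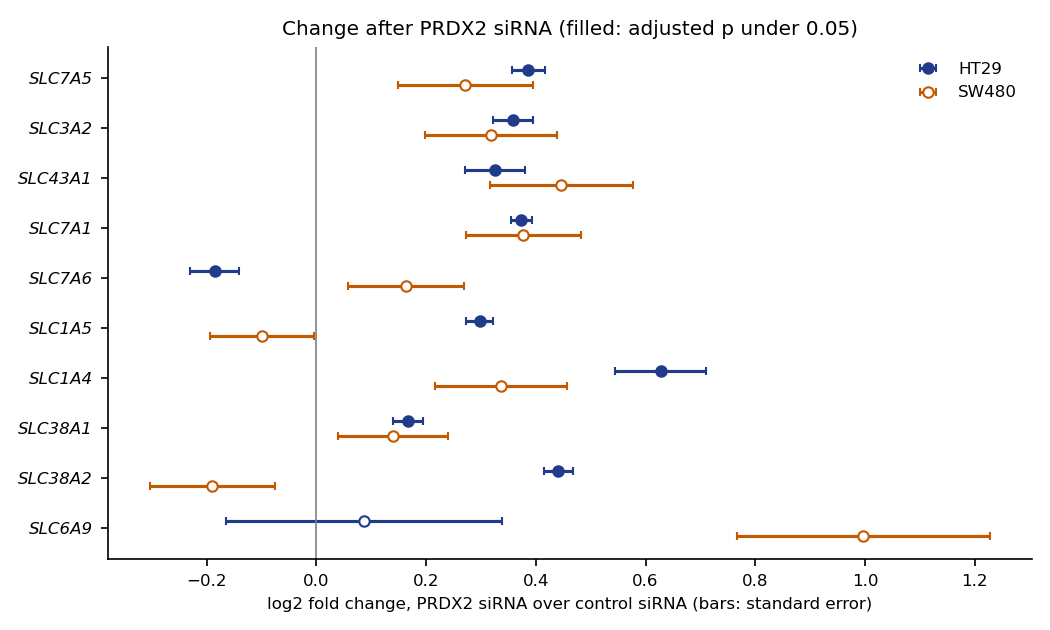
Log2 fold change of each transporter, PRDX2 siRNA over control siRNA, in HT29 and SW480, with bars for the standard error and filled points for adjusted p under the 0.05 threshold. The 9 filled points are all HT29, and the SW480 bars are wider for every gene but SLC6A9.

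In SW480 none of the 10 genes passed edgeR's quasi-likelihood test when all 4 libraries were used, and 5 had an unadjusted p under 0.05, all of them higher with PRDX2 siRNA. DESeq2 also called 0 of them. Of 14112 genes, 1.22% were called higher and 2.08% lower. Point estimates were above 0 for 8 of the 10, with a median log2 change of 0.29 against 0.0022 over all genes. Both PRDX2 siRNA libraries lay above both controls for 8 genes and below them for SLC38A2, while SLC1A5 overlapped. Over all genes, 29.6% separated upwards and 29.0% downwards.

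Leaving out a control library changed this count. Most of the 10 were called, mainly higher, without SW480 control replicate 1 and also without control replicate 2. Every gene list below gained calls in these fits too, so the rise in calls was not particular to the transporters. Without either PRDX2 siRNA library the count stayed at 0. A group left with 1 library is assumed to vary like the others, so the fits without a control library took their spread from the close PRDX2 siRNA duplicates alone. With an offset for transcript GC content, centred in each library, 5 were called: SLC7A1, SLC1A4, SLC38A1 and SLC6A9 higher and SLC1A5 lower. The part of the GC gradient in the values with all 4 libraries was not tested beyond these fits.

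**Figure D4:**
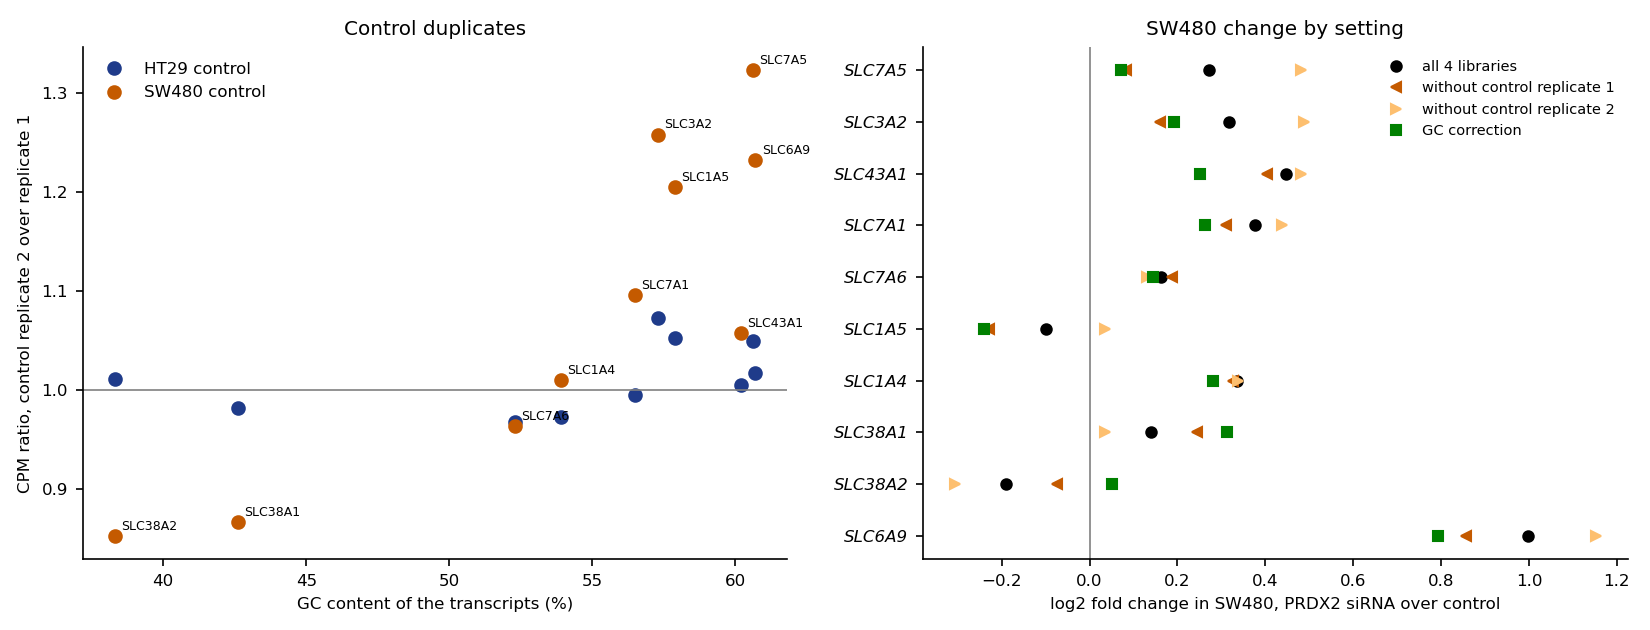
Left, CPM ratio of control replicate 2 to replicate 1 against transcript GC content (%) for the 10 genes, in which the SW480 ratio runs from 0.853 for SLC38A2 to 1.32 for SLC7A5. Right, log2 fold change of each gene in SW480 with all 4 libraries, without each control library and with the centred GC correction; SLC1A5 and SLC38A2 have points on both sides of 0.

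SLC7A5 was 821 and 1085 CPM in SW480 controls and 1124 and 1176 CPM with PRDX2 siRNA. Its log2 change was 0.27 (SE 0.12, adjusted p = 0.212) and was 0.08 without control replicate 1 and 0.48 without control replicate 2. Over 13 alternatives it was lowest at 0.06, with no library left out. SLC3A2 was 355 and 446 CPM against 491 and 507 CPM, a log2 change of 0.32 (SE 0.12, adjusted p = 0.154) that was 0.16 and 0.49 without each control in turn. For this pair, then, the value rested largely on which control library was used. SLC43A1 was 25.4 and 26.9 CPM against 35.9 and 35.5 CPM, with a log2 change of 0.45 (SE 0.13, adjusted p = 0.0918) that was 0.40 and 0.48 without each control and 0.25 with the centred GC correction.

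SLC7A1 was 198 and 217 CPM in SW480 controls and 271 and 267 CPM with PRDX2 siRNA. Its log2 change was 0.38 (SE 0.10, adjusted p = 0.0832), beside 0.37 in HT29, and was 0.31 and 0.44 without each control. The lowest value over 13 alternatives was 0.25, with no library left out. SLC7A6 was 149 and 143 CPM against 168 and 159 CPM, a log2 change of 0.16 (SE 0.11, adjusted p = 0.36) that was 0.19 and 0.13 without each control, beside its fall in HT29. SLC1A4 was 38.5 and 38.9 CPM against 49.4 and 48.2 CPM, with nearly equal controls. The log2 change of 0.34 (SE 0.12, adjusted p = 0.139) stayed at 0.33 and 0.34 without each control.

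SLC1A5 overlapped between groups in SW480, at 1501 and 1808 CPM in controls and 1529 and 1562 CPM with PRDX2 siRNA. Its log2 change was -0.10 (SE 0.09, adjusted p = 0.542), and was -0.23 without control replicate 1 and 0.04 without control replicate 2. SLC38A1 was 541 and 469 CPM against 560 and 552 CPM, a log2 change of 0.14 (SE 0.10, adjusted p = 0.413) that was 0.24 without control replicate 1, 0.03 without control replicate 2 and 0.31 with the centred GC correction. SLC38A2 was 264 and 225 CPM against 213 and 216 CPM, with a log2 change of -0.19 (SE 0.11, adjusted p = 0.328) that was -0.07 and -0.31 without each control and 0.05 with the centred GC correction. SLC6A9 had the largest change of the 10 in SW480, from 3.12 and 3.84 CPM to 7.40 and 6.57 CPM. Its log2 change was 1.00 (SE 0.23, adjusted p = 0.0525) on 27 to 72 counts per library, and 0.86 and 1.15 without each control.

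Whether the knockdown response differed between the lines was tested as an interaction across all 8 libraries and 14772 genes. SLC38A2 was the only one of the 10 to pass, with HT29 above SW480 by 0.63 on the log2 scale (SE 0.11, adjusted p = 0.0247). Among all genes, 0.616% were called with the higher change in HT29 and 0.508% with the lower. In the 4 HT29 libraries SLC38A2 rose with PRDX2 siRNA, and in SW480 both PRDX2 siRNA libraries lay below both controls without passing the test. The difference was 0.51 without SW480 control replicate 1 and 0.73 without replicate 2, and 0.39 with the centred GC correction, all called. Leaving out any of the other 6 libraries kept the value between 0.61 and 0.65 and lost the call, with adjusted p of 0.177 to 0.197. An unadjusted p under 0.05 was reached by 5 of the 10. Some alternatives also called other genes, most often SLC1A5, SLC7A6 and SLC7A5. Over 16 alternatives their differences were 0.25 to 0.57, -0.39 to -0.31 and -0.11 to 0.36. The largest differences that missed the threshold were -0.91 for SLC6A9 (SE 0.31, adjusted p = 0.163), 0.40 for SLC1A5 (SE 0.11, adjusted p = 0.0975) and -0.35 for SLC7A6 (SE 0.10, adjusted p = 0.111). For SLC7A1 the difference was -0.0012 (SE 0.09, adjusted p = 1), which does not show that the lines responded alike.

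Added over the 10 genes, TPM rose from 1864 and 1940 in HT29 controls to 2491 and 2503 with PRDX2 siRNA, and the 2 groups did not overlap. In SW480 the sums were 2717 and 3133 against 3197 and 3253, with a narrow gap between the groups. The SW480 control pair was the widest of the 4. TPM lack the scaling between libraries that the normalised CPM have. Summed over the 10 genes as normalised CPM, which are not per transcript length, the SW480 groups overlapped. SLC1A5 made up 38.4 to 39.7% of the sum in HT29 libraries, 55.3% in both SW480 controls and 48.5 and 48.7% with PRDX2 siRNA in SW480. TPM sums weigh the abundant genes most, and bulk libraries cannot tell fewer cells of a kind from less RNA per cell.

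Of 43 other amino acid transporters listed, 22 were tested in HT29, where 1 rose and 3 fell with a median log2 change of -0.02. Over all genes 7.76% rose and 9.82% fell, so this count is near the background. SLC7A11, the cystine and glutamate exchanger that also pairs with SLC3A2, rose by 0.46 (SE 0.04, adjusted p = 1.64e-07), from 205 and 194 CPM to 278 and 272 CPM. SLC7A7, SLC38A5 and SLC1A7 had log2 changes of -0.34, -0.32 and -1.30, the last from 1.85 and 2.19 CPM to 0.683 and 0.946 CPM. DESeq2 called none of these 3 falls, and each was lost without at least 1 library. In SW480, 23 were tested, 1 rose and 2 fell, again with a median of -0.02. Over all genes in SW480, 1.22% rose and 2.08% fell. The counts were 5 higher and 4 lower without control replicate 1 and 9 higher and 3 lower without control replicate 2. SLC36A1, a proton-coupled carrier of small amino acids on lysosomes and plasma membrane, rose by 0.70 (adjusted p = 0.0258), and the glutamate carriers SLC1A2 and SLC1A3 had log2 changes of -0.99 and -0.88. Without either PRDX2 siRNA library none of the 23 was called in SW480. Of 26 tested for the difference, only SLC36A1 passed (-1.04, HT29 minus SW480, adjusted p = 0.02), while 2 passed without SW480 control replicate 1 and 7 without replicate 2.

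Among 10 tested mitochondrial amino acid carriers, 3 fell in HT29: SFXN3 by 0.26, the glutamate carrier SLC25A22 by 0.22 and SLC25A13 by 0.20 on the log2 scale, where 9.82% of all genes fell. In SW480 only SLC25A22 passed, upwards, with a log2 change of 0.80 (adjusted p = 0.0472), where 1.22% of all genes rose. Its controls lay apart, at 25.1 and 37.2 CPM against 52.0 and 56.7 CPM with PRDX2 siRNA. This change ran from 0.51 to 1.11 over 13 alternatives. Without control replicate 1, 5 of the 10 were called in SW480, and without control replicate 2, 6 were. The difference of SLC25A22 between lines was -1.01 (adjusted p = 0.037) and ran from -1.34 to -0.67 over 16 alternatives. DESeq2 called 1 of the 3 falls in HT29, and the SW480 rise was lost without either PRDX2 siRNA library and with no filter. Of 31 tested genes of amino acid sensing by mTORC1 in HT29, ITFG2 and DEPDC5 rose by 0.24 and 0.29 and AKT1S1 fell by 0.18. Over all genes 7.76% rose and 9.82% fell, so this count is not above the background. Leaving out any library lost ITFG2 and DEPDC5. In SW480 none of 33 passed edgeR's test with all 4 libraries, with 10 at an unadjusted p under 0.05 and 1 called by DESeq2. Without control replicate 1, 7 were called higher and 1 lower there, and without control replicate 2, 18 higher and 5 lower. With the centred GC correction these counts were 6 and 1. For the difference none passed, with 5 at an unadjusted p under 0.05 and 0 called by DESeq2, but 3 had the higher and 13 the lower change in HT29 without SW480 control replicate 2. Without control replicate 1 the difference was called lower for 1 of them, and with the centred GC correction for 2. In HT29, DESeq2 called 0 of the mTORC1 list.

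The list of amino acid response genes holds ATF4, its partners and its targets. It also holds genes of the eIF2alpha step before ATF4, among them EIF2AK2, EIF2AK4 and EIF2S1. Of 31 tested in HT29, 22 rose and EIF2AK2 fell, with a median log2 change of 0.37, against 7.76% of all genes higher and 9.82% lower. GDF15, a secreted stress factor, rose by 0.96, ATF3 by 0.93, the asparagine synthetase ASNS by 0.80, CHAC1, a glutathione-degrading enzyme, by 0.69 and DDIT4, an inhibitor of mTORC1, by 0.60. In SW480, 6 of 31 rose and EIF2AK2 fell, with a median of 0.14, against 1.22% of all genes higher and 2.08% lower. The 6 were GDF15 (1.82), DDIT3 (0.73), CEBPB (0.73), ASNS (0.61), PHGDH (0.61) and STC2 (0.50). The counts in SW480 were 16 higher and 4 lower without control replicate 1 and 13 higher and 5 lower without control replicate 2. Without either PRDX2 siRNA library only GDF15 was called. Of 32 tested for the difference, DDIT4, PSPH and VLDLR had the higher change in HT29 and GDF15 the lower, at 0.82, 0.67, 1.05 and -0.85 on the log2 scale. Without SW480 control replicate 1, 10 of the 32 were called, and without replicate 2, 19 were. The 4 calls, and those of SLC36A1 and SLC25A22, were lost without any 1 of the 6 libraries other than the SW480 controls. EIF2AK2, ASNS in SW480 and the genes named for the difference were picked out after their values were seen.

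**Figure D5:**
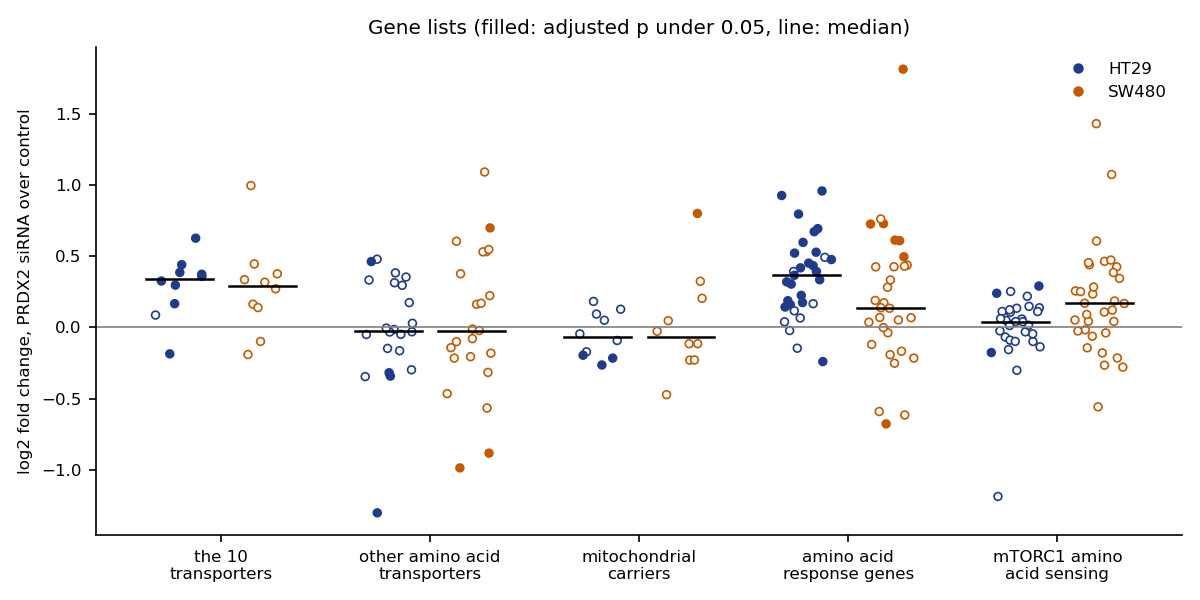
Log2 fold change, PRDX2 siRNA over control siRNA, of the tested genes of each list, with 1 point per gene, filled where adjusted p was under 0.05, and a line at the median. The HT29 medians are 0.34 for the 10 transporters and 0.37 for the amino acid response genes, and -0.02 for the other transporters.

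At baseline, SW480 controls stood below HT29 controls for 21 of 32 tested amino acid response genes and above for 4 (EIF2AK4, EIF2S1, STC2 and VLDLR), with a median log2 difference of -0.71. Of 25 other transporters tested, 11 were higher and 7 lower in SW480. Over all genes 35.7% were higher and 31.8% lower, so the count of other transporters is near the background.

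Few counts went to copies of SLC7A5. The annotated copies SLC7A5P1 and SLC7A5P2 together took 0.225 to 0.855% of the SLC7A5 and copy counts. The library kit does not mark strand, so reads from overlapping genes on opposite strands could not be told apart by it. SLC7A6 overlaps SLC7A6OS over 17321 bases and SLC6A9 overlaps CCDC24 over 5029 bases. CCDC24 had log2 changes of -0.32 in HT29 and 0.43 in SW480, and neither it nor SLC7A6OS passed the test in either line. SLC1A4 is overlapped by LINC02245 and SLC38A2 by SLC38A2-AS1, on the opposite strand, which were not analysed here. The part of overlapping genes in the values of the transporters was not tested.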

How the data were processed

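RNA of 8 libraries was sequenced after TruSeq RNA v2 preparation. The authors aligned reads to hg19 with MapSplice and estimated abundance of refGene mRNAs with RSEM. These steps are described for HT29, and those for SW480 are not given separately in the sources used here. The deposited expected counts are not normalised, and the deposited TPM are abundances per transcript length scaled to a fixed total per library. The deposited FPKM were not used. Expected counts were rounded and tested with edgeR 4.0.16 in R 4.3.3 (quasi-likelihood F-test, TMM, genes with at least 10 counts in 2 libraries, Benjamini-Hochberg adjustment over all tested genes, threshold 0.05). Each line was fitted alone, the difference between lines in all 8 libraries and the baseline in the 4 controls. SE is the log2 change divided by the square root of F. DESeq2 1.42.0, RLE scaling, no filter, a replicate block, GC offsets (loess span 0.5, for the 91.4% of symbols with a GC value) and leaving out each library were alternatives. Centring the GC offset in each library was added after the data were seen, as were the alternatives for the gene lists. The models were also run on simulated data with the same dispersion for every gene and no GC gradient. Those runs do not cover a pair such as the SW480 controls. The genes, the lists (other transporters, mitochondrial carriers, amino acid response, mTORC1 sensing, cell type markers) and the tests were chosen with earlier results of these data known. Named are all 10 genes, PRDX2, copies and overlapping genes, and from each list up to 5 genes per knockdown comparison with the smallest p among those called with non-overlapping groups; some named items are not reported here. Promoters are RefSeq's for GRCh38.p14, and gene spans GENCODE's for GRCh37. The floor of 3 counts covers counting error only.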

Additional observations from a re-analysis of the deposited data

Results flagged for a closer look

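SLC38A2 was marked because its response to PRDX2 siRNA differed between the lines by the interaction test: HT29 exceeded SW480 by 0.63 on the log2 scale (SE 0.11, edgeR adjusted p = 0.0247). Its CPM rose in both HT29 PRDX2 siRNA libraries and lay below both controls in SW480, where the change alone did not pass the test. Over 16 alternatives the difference ranged from 0.39 to 0.73, and it was called in 10 of them. The SW480 control duplicates, which differ along GC content, have a ratio of 0.853 for this gene.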

How the results depend on the processing

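In HT29, 9 of the 10 genes were called with RLE scaling, no filter, the replicate block, each GC correction and every left-out library, 8 with DESeq2 and 3 with all 8 libraries fitted together, whose shared spread includes the SW480 controls. In SW480, where 0 were called, 5 were with all 8 libraries and 1 with the replicate block. The GC correction called 5, with or without centring, and 6 when the block was added. Leaving out a control library raised the count, as it did for every gene list. For the difference, where 1 was called, 4 were with each GC correction, with or without the block, and leaving out a library gave 0 to 5. At baseline, leaving out a library gave 5 to 8. The first GC correction, which was not centred, shifted the baseline median of all genes to -0.30 and turned the baseline calls from 4 higher and 3 lower into 2 and 5; centred, they were 4 and 4. The cause of these shifts was not tested.

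Signs turned under some alternative for 9 of the 10 genes, all but SLC1A4, each in a comparison where the gene was not called with all libraries and no correction. In SW480, SLC38A2 was 0.0408 with the GC correction and 0.041 with the block added, and 0.0517 and 0.0523 when centred. SLC1A5 ranged from -0.23 to 0.0362 over left-out libraries. For the difference, SLC7A1 was 0.0056 with no filter, 0.13 and 0.13 with the GC correction without and with the block, and 0.10 and 0.10 when centred. SLC43A1 was 0.11, 0.12, 0.0824 and 0.0861 in those 4 fits and SLC38A1 was -0.13, -0.13, -0.16 and -0.16. Over left-out libraries the difference ran from -0.11 to 0.30 for SLC7A5, -0.14 to 0.20 for SLC3A2, -0.0799 to 0.0635 for SLC7A1 and -0.0775 to 0.12 for SLC38A1. At baseline SLC6A9 was -0.20 with the GC correction and -0.20 with the block added, SLC7A6 ran from -0.13 to 0.0138 and SLC38A1 from -0.11 to 0.10.

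Across genes, the log2 difference between control replicates correlated with that between PRDX2 siRNA replicates at 0.10 in HT29 and 0.11 in SW480. With 2 pairs per line and no label of a shared batch, same-numbered libraries share only a number. Over all genes in HT29, 2279 were called, against 871 with DESeq2 and 185 with all 8 libraries. In SW480, 466 were called (172 higher, 294 lower), against 2415 with all 8 libraries, 1727 with the replicate block (858 and 869), 2272 with the GC correction (1083 and 1189) and 2196 when it was centred (1095 and 1101). For the difference, 166 were called (91 and 75), against 267 with no filter, 311 with DESeq2, 959 with the GC correction and 880 when centred (377 and 503). At baseline the GC correction that was not centred called 4065 higher and 7162 lower, against 5122 and 4559. Depth limits SLC6A9 most, with 27 to 72 counts.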
